A study of Mus musculus with 46 samples.

Results

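The ribosome footprints examined here came from control EPP2 cells that received either the mTOR inhibitor torin 1 or its solvent. EPP2 is a murine pancreatic cancer line, used as a single-cell-derived clone with doxycycline-inducible Cas9, and the labels give the genotype of the control cultures as WT. Of the 46 libraries of the series, the 12 analysed in depth were all footprint libraries labelled control, 6 with DMSO and 6 with 300 nM torin 1, each for 2 h. For the knockout arm doxycycline was given at 300 ng/mL from 4 days before the experiment. Controls in the study carried guide RNAs against non-coding chromosome regions or received no doxycycline, and the labels do not say which applied to these cultures. The genes were all 9857 symbols that both sets of tables listed on exactly 1 entry, out of 10453 symbols in the series, and 9856 of them averaged at least 10 counts and were tested. A further 540 symbols stood in the DMSO tables alone and 56 in the torin 1 tables alone, and these were not tested. Every listed entry reached at least 100 footprint counts in a library of its treatment. Which symbols were left out can therefore depend on treatment and depth, and strong changes could be among them.

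mTOR is a kinase that forms 2 complexes, mTORC1 and mTORC2, and torin 1 blocks the active site in both. mTORC1 promotes translation by phosphorylating the 4E-BP proteins and LARP1. Messenger RNAs with a terminal oligopyrimidine (TOP) tract, a run of C and T directly at the cap that opens with C, depend on it most, and they encode ribosomal proteins and many translation factors. mTORC2 activates AKT, which keeps the FoxO transcription factors out of the nucleus, and mTORC1 does the same for TFEB and TFE3, transcription factors of lysosome and autophagy genes. Ribosome profiling sequences the fragments of mRNA that ribosomes shield from nuclease, so the footprint count of a gene reflects both how much of its mRNA is present and how densely ribosomes sit on it. Counts were compared relative to the rest of each library. A loss of translation shared by all genes could therefore not be seen, and higher or lower means relative to the typical gene.

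The libraries held 18067298 to 52907878 counts with DMSO (median 26312873) and 10148799 to 34715141 with torin 1 (median 13038327), and the totals of the 2 groups overlapped. The difference in mean log2 total was -0.72 (two-sided exact permutation test, p = 0.0823, smallest possible 0.00216). The torin 1 library of replicate 1 stood furthest from its group: its log2 values correlated with those of the other torin 1 libraries at r = 0.935 to 0.96 over 7366 genes. Without it, 316 genes were called higher and 421 lower, and 623 of the 714 calls made with it remained. Of the cell type markers, 12 of 14 mesenchymal markers, 4 of 10 duct and progenitor markers (Sox9 and Spp1 among them) and 4 of 12 epithelial markers were listed, Epcam and Cdh1 not among the latter, and none of the 14 acinar and islet or the 12 leukocyte and endothelial markers. Keratins 8, 18 and 19 and Ocln were the epithelial markers present. The summed level of the listed mesenchymal markers was 5960 to 8296 CPM (counts scaled to a library of 1000000) with DMSO and 5318 to 6995 with torin 1, although 9 of the 12 had a log2 change above 0 (median 0.09, 1 called higher and 1 lower), and the list holds Vim, a TOP mRNA that fell. That of the epithelial markers was 280 to 342 and 221 to 313. The listed duct and progenitor markers, here together with Krt19, summed to 3142 to 4190 and 3632 to 4970. The part of these markers in the results was not tested.

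The mRNAs of ribosomal proteins and of other TOP genes took a smaller share of all footprints after torin 1. The 82 cytosolic ribosomal protein genes took 8.42 to 9.79% of footprint counts with DMSO (median 8.89) and 4.53 to 5.22% with torin 1 (median 4.97). The ranges did not overlap, and the mean share fell by 4.09 percentage points. The 23 other TOP mRNAs took 4.02 to 4.26% with DMSO (median 4.08) and 2.24 to 2.63% with torin 1 (median 2.52), again without overlap and with a fall of 1.61 points. For both groups the two-sided exact permutation test gave p = 0.00216, the smallest that 6 against 6 allows (adjusted p = 0.00289 over 4 groups, the fourth being all remaining genes). The 13 mitochondrially encoded genes, translated by ribosomes inside mitochondria, took 1.24 to 1.76% with DMSO and 1.03 to 2.32% with torin 1. These ranges overlapped, and the difference of 0.276 points did not pass the exact permutation test (p = 0.221). In the sign-flip test, 1 of 6 pairs was lower with torin 1 and p was 0.0625. All remaining genes took 84.3 to 86.1% with DMSO and 90.4 to 91.6% with torin 1. Their share is what the other 3 groups leave of the total, so this rise is no separate result.

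**Figure D1:**
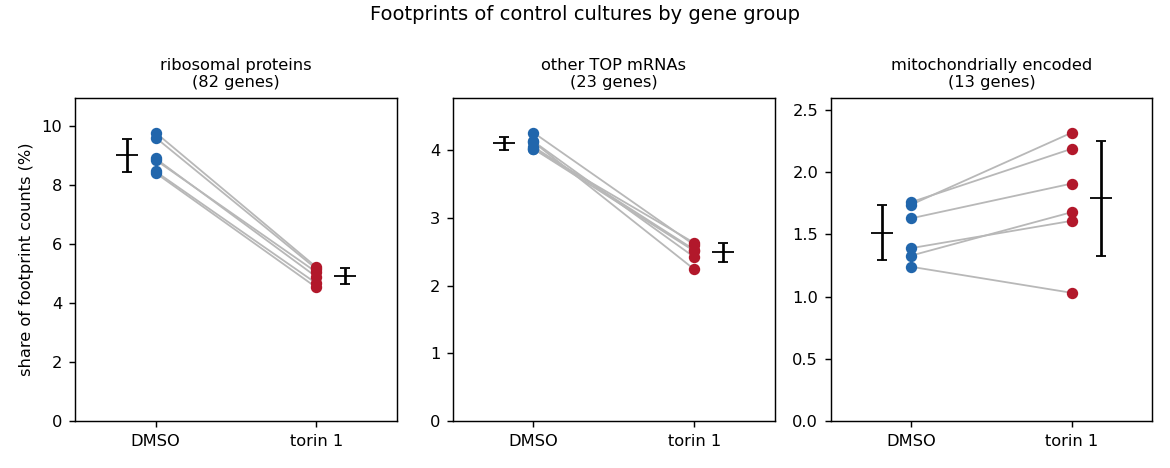
Share of footprint counts (%, vertical axes from 0) on 3 gene groups in control cultures with DMSO (blue) or torin 1 (red); each point is 1 library, grey lines join libraries with the same replicate number, and the crossed bars are the mean ± SD (n = 6). Every line of the ribosomal proteins and other TOP mRNAs falls, from 8.42 to 9.79% down to 4.53 to 5.22% and from 4.02 to 4.26% down to 2.24 to 2.63%, while 5 of the 6 lines of the mitochondrially encoded genes rise.

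Gene by gene, 714 of 9856 genes (7.24%) passed edgeR's quasi-likelihood test at a Benjamini-Hochberg adjusted p under 0.05, which is the test behind every adjusted p below unless another is named. Of these, 287 were higher with torin 1 (2.91% of the genes tested) and 427 lower (4.33%). Changes of at least 2-fold were found in 42 higher and 76 lower genes. The lower genes comprised 79 ribosomal proteins, 20 of the other TOP mRNAs, 21 genes that share sequence, position or a name with ribosomal protein genes, and 307 others. The control libraries are paired by replicate number, and with the replicate block 974 genes (9.88%) were higher and 1045 (10.6%) lower, against which the block counts of gene lists below are to be read. All 287 and all 427 calls of the unpaired test were among these. Scaling by library totals in place of TMM factors moved the median of all genes from 0.01 to 0.10 on the log2 scale and the split from 287 higher and 427 lower to 602 and 327. All 287 higher calls and 327 of the 427 lower calls held under both. DESeq2 called 482 of 9856 genes higher and 586 lower, and replicates 3 to 6 alone gave 257 and 390 of 9855. List counts from those fits are to be read against these.

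**Figure D2:**
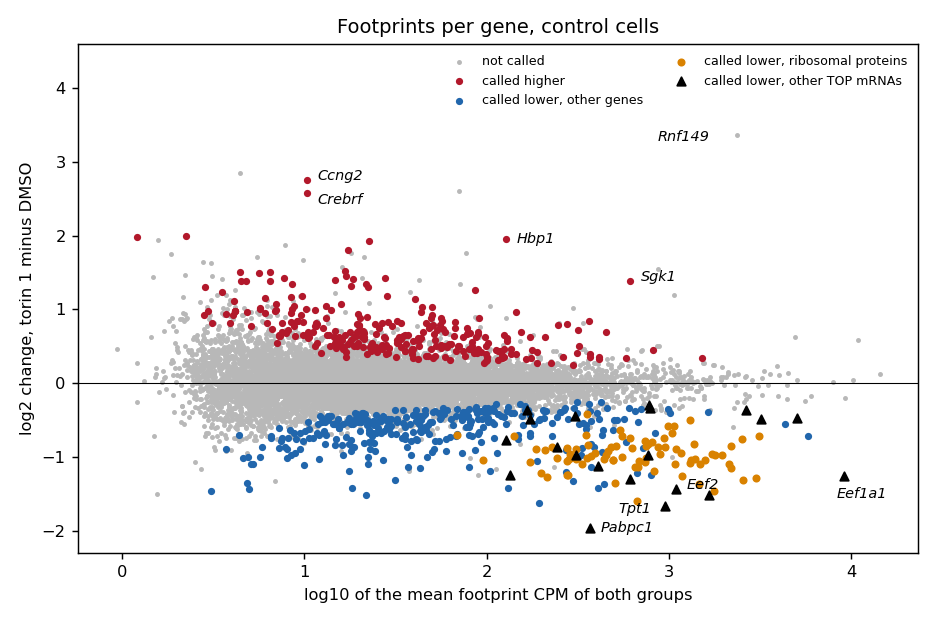
Log2 footprint change with torin 1 against the log10 of the mean footprint CPM, for the 9856 genes tested in control cells; red marks the 287 genes called higher, blue, orange and black the 427 called lower, and grey the rest. Ribosomal proteins and other TOP mRNAs lie among the highly covered genes below 0, and Ccng2 and Crebrf have the largest increases among the called genes.

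The largest gains were those of Ccng2, Crebrf, Hbp1 and Klhl24. Ccng2 (chr5:93267573-93276231, GRCm38.p6), an unconventional cyclin linked to cell cycle arrest and a known FoxO target, had 2.08 to 3.44 CPM with DMSO (median 2.63) and 15.1 to 25.5 with torin 1 (median 17.1), a log2 change of 2.76 ± 0.18 (SE, n = 6 and 6, adjusted p = 1.17e-07). Crebrf (chr17:26715594-26776637), a negative regulator of a stress-responsive transcription factor, went from 2.47 to 4.09 CPM (median 2.75) up to 10.6 to 24.5 (median 17.6), a log2 change of 2.58 ± 0.20 (adjusted p = 6.63e-07). In both genes every torin 1 library was above every DMSO library by a wide margin. Hbp1 (chr12:31926452-31950530), a repressor of cell cycle genes, had 27.9 to 65.2 CPM (median 55.2) and 179 to 236 (median 198), a log2 change of 1.95 ± 0.16 (adjusted p = 1.06e-06). Klhl24 (chr16:20097553-20129226), a substrate adaptor of a ubiquitin ligase, had 6.34 to 13.4 CPM (median 9.45) and 27.1 to 46.5 (median 35.7), a log2 change of 1.93 ± 0.19 (adjusted p = 7.17e-06). Mnt, which opposes Myc on shared DNA sites, rose from a median of 14.8 to 35.7 CPM (log2 change 1.43, adjusted p = 0.00185). The groups did not overlap, which was 1 condition for naming the 15 largest changes in each direction, besides a call and a mean of at least 100 counts. Over all genes tested the groups did not overlap in 1.99% with the higher values after torin 1 and in 3.39% with the lower.

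Sgk1 (chr10:21882184-21999903), a kinase activated through mTORC2, was the most highly covered of the 15 largest increases in footprint CPM. It had 271 to 439 CPM with DMSO (median 321) and 719 to 1032 with torin 1 (median 876), a log2 change of 1.38 ± 0.14 (adjusted p = 7.17e-06). Irs2 (chr8:10984681-11008929), the adaptor that carries the insulin receptor signal, had 4.02 to 6.72 CPM (median 4.67) and 9.36 to 14.7 (median 12.5), a log2 change of 1.34 ± 0.17 (adjusted p = 9.89e-05). In both, as the naming rule required, the lowest torin 1 library was above the highest DMSO library. Inhba, a subunit of the TGF-beta family ligand activin, had 2.47 to 4.63 CPM with DMSO and 4.96 to 21.1 with torin 1, where the library of replicate 4 stood at 21.1 and the next at 10.4 (log2 change 1.39 ± 0.32, adjusted p = 0.0145). Pim1, a serine/threonine kinase that promotes survival, rose by 1.43 (adjusted p = 0.00157) and Klf4, a transcription factor of epithelial and stem cells, by 1.52 (adjusted p = 2.54e-05). The rest of the 15 largest increases were Pcdh9 (1.51), Fam110c (1.49), Ceacam1 (1.45), Ibtk (1.41) and Zswim4 (1.40), all log2 changes, with adjusted p between 1.52e-06 and 0.00538. Pcdh9 is a cell adhesion protein of the protocadherin family and Ceacam1 an adhesion receptor of the immunoglobulin family.

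**Figure D3:**
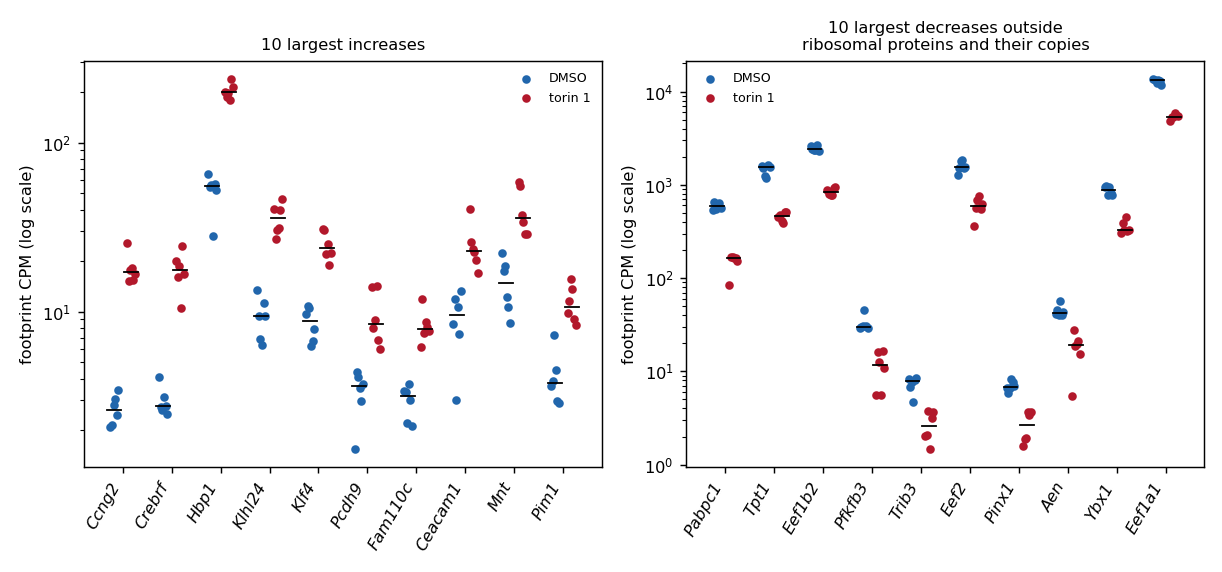
Footprint CPM (log axes) in each of the 6 DMSO (blue) and 6 torin 1 (red) control libraries; horizontal lines are group medians. On the left are the 10 largest increases, on the right the 10 largest decreases outside ribosomal proteins and their copies, and the groups do not overlap in any of the 20 genes shown, as the rule that chose them required.

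Of 39 tested FoxO targets and growth brakes 14 rose and 1 fell, with a median log2 change of 0.27 against 0.01 over all genes tested (2.91% of which rose). Bcl2l11, which encodes the pro-apoptotic protein Bim, had 13.7 to 22 CPM with DMSO (median 16.1) and 31.6 to 47.2 with torin 1 (median 37.4), a log2 change of 1.18 ± 0.14 (adjusted p = 3.28e-05). Btg1, an antiproliferative factor, rose from a median of 30.3 to 58.4 CPM (log2 change 0.97 ± 0.10, adjusted p = 8.79e-06), and Foxo3 itself from 35.8 to 60.6 (0.89 ± 0.15, adjusted p = 0.00109). The groups did not overlap in any of these 3 genes. Cited2 (0.79), Klf6 (0.70), Klf9 (0.80), Bcl6 (0.98) and Txnip (0.95), transcriptional regulators apart from Txnip, which limits glucose uptake, rose as well. The exception was Ddit4, an mTORC1 inhibitor that stress induces, which had 4.54 to 9.16 CPM with DMSO and 2.25 to 4.58 with torin 1. It fell by 1.09 on the log2 scale (adjusted p = 0.00813), and the ranges touched.

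Of 23 tested G1 cyclins, CDKs and CDK inhibitors 6 rose (26.1%, against 2.91% of all genes) and 4 fell (17.4%, against 4.33%). Those that rose were Ccng2 and the CDK inhibitors Cdkn1a, Cdkn1b, Cdkn2b, Cdkn2c and Cdkn2d, and those that fell were the cyclins Ccnd1, Ccnd3, Ccne1 and Ccne2. The 4 became 2 when scaled by library totals or without the torin 1 library of replicate 1. The CDK inhibitors Cdkn1b and Cdkn2b rose, from a median of 17.6 to 29.1 CPM (log2 change 0.80 ± 0.12, adjusted p = 0.000717) and from 19.8 to 30.8 CPM (0.75 ± 0.12, adjusted p = 0.00124). Cdkn1a, another CDK inhibitor and also a p53 target, rose by 0.78 ± 0.19 (adjusted p = 0.0189) with overlapping groups. Ccne1, which drives entry into S phase, had 22.2 to 26.5 CPM with DMSO (median 23.8) and 10.2 to 16.4 with torin 1 (median 13.3), a log2 change of -0.86 ± 0.12 (adjusted p = 0.000167). Ccnd3, a D-type cyclin, had 248 to 289 (median 270) and 150 to 227 (median 187), a log2 change of -0.54 ± 0.10 (adjusted p = 0.00387). The groups did not overlap in either. Of the other cell cycle lists, none of 48 mitotic genes passed in edgeR (11 were higher and none lower at an unadjusted p under 0.05, and DESeq2 called 3 higher), with a median of 0.14. Of 49 DNA replication genes 1 was lower (2.04%, below the 4.33% of all genes), Rrm2, the small subunit of ribonucleotide reductase (-0.46, adjusted p = 0.0087). With the replicate block 14 mitotic genes were higher and 1 lower, and without the torin 1 library of replicate 1 6 were higher.

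Autophagy and lysosome genes were also called higher more often than all genes. Of 39 autophagy genes 7 rose (17.9%, against 2.91% of all genes) and 1 fell (2.56%, against 4.33%), with a median log2 change of 0.21, and with the replicate block 13 rose and 1 fell. Sqstm1, the cargo receptor p62, had 288 to 371 CPM with DMSO (median 345) and 506 to 663 with torin 1 (median 544), a log2 change of 0.70 ± 0.09 (adjusted p = 7.15e-05). Gabarapl1, an ATG8 family protein of the autophagosome membrane, had 49 to 68.4 CPM (median 58.6) and 83.5 to 95.5 (median 90.8), a log2 change of 0.63 ± 0.09 (adjusted p = 0.000313). The groups did not overlap in either gene. Atg13 (0.71) and Rb1cc1 (0.64), members of the kinase complex that starts autophagy, and Atg14 (0.99), of the lipid kinase complex, rose too. Atg16l1, which places the ATG8 conjugation machinery on membranes, fell from 34.2 to 38.6 CPM (median 36.6) to 10.9 to 23.1 (median 17.5), a log2 change of -1.04 ± 0.17 (adjusted p = 0.000894). Of 51 lysosome and TFEB/TFE3 target genes 6 rose (11.8%) and none fell (median 0.18), 16 with the replicate block and 11 when scaled by library totals. Fnip1 and Flcn, partners in a complex that activates RagC and RagD on the lysosome, changed by 1.34 ± 0.17 (adjusted p = 9.8e-05) and 0.60 ± 0.11 (adjusted p = 0.00259). Of 48 genes of the mTOR complexes and their regulators 4 rose (8.33%) and 2 fell (4.17%, near the 4.33% of all genes), with a median of 0.15. The replicate block gave 12 and 5, and 7 rose in DESeq2 and 10 when scaled by library totals. Mtor itself had a median of 51.1 CPM with DMSO and 50.2 with torin 1 (log2 change -0.02 ± 0.09, adjusted p = 0.955).

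Of 31 growth factor receptor and adaptor genes 3 rose (Sgk1, Irs2 and Pdgfra, 9.68% against 2.91% of all genes) and none fell, with a median of 0.22. With the replicate block 11 rose and 1 fell, and 5 rose in DESeq2 and 7 when scaled by library totals. Of 40 MAPK output and feedback genes 5 rose (12.5%) and 2 fell (5%, near the 4.33% of all genes), with a median of 0.14. The replicate block gave 14 and 5, and 10 rose both in DESeq2 and when scaled by library totals. Dusp4, a phosphatase that inactivates ERK, had 25.1 to 34.3 CPM with DMSO (median 28.3) and 48.6 to 75.3 with torin 1 (median 55.4), a log2 change of 1.03 ± 0.13 (adjusted p = 7.15e-05). Spred1, an inhibitor of RAS signalling, changed by 0.53 ± 0.09 (adjusted p = 0.00237) and Areg, a ligand of the EGF receptor, by 0.63 ± 0.11 (adjusted p = 0.0013). The groups overlapped in none of the 3. Sox9, a transcription factor of pancreatic duct cells, rose from a median of 45.9 to 82 CPM (0.83 ± 0.14, adjusted p = 0.00135), the only listed duct and progenitor marker to pass, and Ndrg1, a stress-induced growth inhibitor, from 65.1 to 118 (0.89 ± 0.11, adjusted p = 0.000109).

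Outside the ribosomal proteins, 5 of the 15 largest decreases were in mRNAs of the TOP list. Of the 23 TOP mRNAs 20 were lower and none higher (median log2 change -0.77, against 4.33% of all genes lower), all 23 with the replicate block and 16 when scaled by library totals. Pabpc1 (chr15:36595658-36609581), the cytoplasmic poly(A)-binding protein, had 532 to 653 CPM with DMSO (median 589) and 83.7 to 169 with torin 1 (median 164), a log2 change of -1.97 ± 0.15 (adjusted p = 4.67e-07). Tpt1 (chr14:75845256-75848303), the translationally controlled tumour protein, had 1171 to 1614 CPM (median 1537) and 391 to 512 (median 468), a log2 change of -1.66 ± 0.11 (adjusted p = 1.14e-07). In both genes the highest torin 1 value was far below the lowest DMSO value. The elongation factors followed, with Eef1b2 at -1.52 ± 0.08, Eef2 at -1.43 ± 0.15 and Eef1a1 at -1.26 ± 0.07 on the log2 scale. Eef1a1, which brings aminoacyl-tRNA to the ribosome, had 11714 to 13507 CPM with DMSO (median 13154) and 4821 to 5834 with torin 1 (median 5395). Ybx1, an mRNA-packaging protein, had 771 to 972 CPM (median 881) and 301 to 456 (median 331), and Eif3f, a subunit of initiation factor 3, 178 to 206 (median 186) and 72.8 to 88.3 (median 79.7). Their log2 changes were -1.30 ± 0.11 and -1.24 ± 0.08. Eef1a1 and Eif3f come after the 15 largest decreases and were singled out after their values were seen. Rack1 (-0.98) and Pabpc4 (-0.98) lost about as much as the typical ribosomal protein, while Eif2s3x (-0.21, adjusted p = 0.428), Nap1l1 (-0.37, adjusted p = 0.0941) and Eef1d (-0.25, adjusted p = 0.0623) did not pass. Of 82 ribosomal proteins 79 were lower, with a median of -0.96. Many of these genes have processed copies in the genome. The study's methods name the gene counting mode of the aligner STAR, which counts reads that align to a single place, so reads that match a gene and its copies equally would not be counted, but which output was deposited is not stated.

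The annotated 5′ ends of 9 TOP-list genes, 8 of them called lower, and of 4 raised genes are printed so that starts with and without a pyrimidine run can be compared. These are a selection, and the shares over whole groups are given after them. Each line gives 5 bases before to 20 bases from the RefSeq start on the mRNA strand (GRCm38.p6). Capitals mark a TOP-like run, a C followed by at least 4 C or T that begins within 5 bases of the start.
Eef1a1 (chr9:78481705-78481729, minus): CCCTCTTCCCgagggtgggggagaa
Eif3f (chr7:108934410-108934434, plus): gCTCTCTCTCTTTCTCggcaagatg
Rack1 (chr11:48800355-48800379, plus): tCTTTCTTTTTCTCCacagggtcgt
Vim (chr2:13574306-13574330, plus): cagtCCTCTgccactcttgctccgg
Nap1l1 (chr10:111473222-111473246, plus): cgggtCTTTTTTagcgccatctgct
Tpt1 (chr14:75845251-75845275, plus): acgacagttccgggggagccgcgga
Eef1b2 (chr1:63176826-63176850, plus): gttccgccggaagtagccgaggcct
Eef2 (chr10:81176626-81176650, plus): cgggcgttgacgtcagcggtctctt
Ybx1 (chr4:119294494-119294518, minus): cgtcccgccattctcgctagttcga
Ccng2 (chr5:93267568-93267592, plus): caaggggtttgctcagctccggagg
Crebrf (chr17:26715645-26715669, plus): ggggcgagtcacgcgatttccggga
Hbp1 (chr12:31950226-31950250, minus): cttcaggggagggggaagacgaagc
Klf4 (chr4:55532456-55532480, minus): ccggcagttccccggccaagagagc

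Eef1a1, Eif3f and Rack1, all lowered by at least 0.98 on the log2 scale, held such a run, as did Vim (-0.48) and Nap1l1 (-0.37, not called). Tpt1, Eef1b2, Eef2 and Ybx1 held none within this window of the annotated start, and neither did the 4 raised genes shown. Over the promoter table, 21.2% of 27025 genes with an annotated start held a TOP-like run, and 24% of the 7828 tested genes did. The share was 49.2% of 61 ribosomal proteins, 47.1% of 17 other TOP mRNAs (40% of the 15 called lower), 22.1% of 231 genes called higher and 23.3% of the 249 genes called lower outside ribosomal proteins, their copies and the TOP list. Outside those groups, genes with a TOP-like start were lower in 3.16% of 1838 cases and genes without in 3.24% of 5898. A match describes letters at the annotated start only.

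Among the 15 largest decreases outside the ribosomal proteins, 6 were genes that share sequence, position or a name with them. Rps27rt, a retrotransposed copy of Rps27, fell by 1.62 on the log2 scale (adjusted p = 9.12e-08), as Rps27 did by 1.60. Gm45713 overlaps Rpl13a and fell by 1.32 against 1.31 for Rpl13a. Rps18-ps5 (-1.42), Rps18-ps6 (-1.37), Rpl9-ps1 (-1.42) and Gm2174 (-1.42), 66.5% of whose 27-base windows also occur in ribosomal protein transcripts, were the others. The share of such windows was 92.0% for Rps27rt, 41.1% for Gm45713 and 16.5% for Rpl9-ps1, and how many of their counts came from reads of the parent genes was not tested. Rps18-ps5 and Rps18-ps6 were included by name, without a value for shared windows. In all, 21 of 32 such genes outside the list of 82 were lower (65.6%, against 4.33% of all genes).

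The other 4 of the 15 largest decreases were Pfkfb3, Trib3, Pinx1 and Aen. Pfkfb3 (chr2:11471430-11554071), whose product makes the activator of glycolytic phosphofructokinase, had 28.9 to 45.6 CPM with DMSO (median 29.9) and 5.54 to 16.6 with torin 1 (median 11.8), a log2 change of -1.52 ± 0.25 (adjusted p = 0.00133). Trib3, a pseudokinase induced by ATF4, had 4.68 to 8.49 CPM (median 7.88) and 1.48 to 3.8 (median 2.6), a log2 change of -1.43 ± 0.25 (adjusted p = 0.00198). In neither did the groups overlap, as the naming rule required. Pinx1, a nucleolar inhibitor of telomerase, had 5.8 to 8.24 CPM (median 6.81) and 1.57 to 3.67 (median 2.65), a log2 change of -1.36 ± 0.24 (adjusted p = 0.00186). Aen, a nuclease induced by p53, had 39.9 to 56.8 CPM (median 42.6) and 5.47 to 27.7 (median 19.2), a log2 change of -1.31 ± 0.26 (adjusted p = 0.00483). The next in size, chosen after their values were seen, were the nucleolar protein gene Ccdc137 (-1.19), the transcriptional coregulator Ifrd1 (-1.19) and Cox7a2l (-1.15), which helps join respiratory chain complexes.

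Smaller decreases were found among genes of ribosome assembly and translation initiation. Of 74 nucleolar ribosome biogenesis factors 13 were lower (17.6%, against 4.33% of all genes) and none higher, with a median log2 change of -0.28, and 69 of the 74 changes were below 0. With the replicate block 43 were lower, and 23 in DESeq2. Rrs1, needed for the large subunit, had 49 to 79.4 CPM with DMSO (median 61.1) and 24 to 42.2 with torin 1 (median 30.2), 2-fold lower (SE 0.16 on the log2 scale, adjusted p = 0.00094). Bysl, needed for the small subunit, had 19 to 27.5 CPM (median 22.5) and 9.36 to 16.4 (median 12.8), a log2 change of -0.83 ± 0.14 (adjusted p = 0.00173). Polr1c, a subunit shared by RNA polymerases I and III, had 115 to 153 CPM (median 139) and 76.5 to 87.4 (median 81.1), a log2 change of -0.75 ± 0.08 (adjusted p = 2.1e-05). No overlap was seen in these 3 genes, and Nip7 (-0.57), Mrto4 (-0.46) and Ppan (-0.60) fell too. Of 44 initiation factors 11 were lower (25%) and none higher (median -0.23), and 5 of the 37 outside the TOP list (13.5%). With the replicate block these counts were 24 and 17, and they were 6 and 2 when scaled by library totals, where 3.32% of all genes were lower. Without the torin 1 library of replicate 1 the first was 7. Eif4b, which assists the RNA helicase of initiation and is itself in the TOP list, fell from a median of 314 to 181 CPM (-0.86 ± 0.12, adjusted p = 0.00022), and Eif4ebp2, the 4E-BP that mTORC1 inactivates, from 22 to 13 (-0.77 ± 0.13, adjusted p = 0.00199). Eif4e, the cap-binding protein, had medians of 408 CPM with DMSO and 394 with torin 1, while the fitted log2 change was 0.06 (adjusted p = 0.794). Myc, an activator of ribosome biogenesis genes, fell by 0.39 (adjusted p = 0.0224), with adjusted p of 0.0509, 0.0502 and 0.052 without DMSO replicate 4, DMSO replicate 6 or torin 1 replicate 5.

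Fasn, the fatty acid synthase, had 673 to 1307 CPM (median 883) and 337 to 693 (median 493), a log2 change of -0.88 ± 0.17 (adjusted p = 0.00367), with ranges that overlapped. It was 1 of 2 called genes, both lower, among 17 of fatty acid synthesis (11.8%, against 4.33% of all genes). The replicate block gave 7 lower and 1 higher, DESeq2 5 lower, and library totals 1 lower and 1 higher.

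Of 35 integrated stress response genes 5 were lower (14.3%, against 4.33% of all genes) and 1, Sqstm1, higher (median -0.15), 10 and 3 with the replicate block. Atf4, the transcription factor of this response, had 83.9 to 107 CPM with DMSO (median 96.3) and 55.2 to 81 with torin 1 (median 66.6), a log2 change of -0.51 ± 0.11 (adjusted p = 0.00932), without overlap. Its targets Mthfd2 (-0.52) and Phgdh (-0.34), enzymes of mitochondrial folate metabolism and serine synthesis, were lower, whereas Asns, asparagine synthetase, had medians of 306 and 302 CPM (log2 change -0.05, adjusted p = 0.877). Of 24 heat shock proteins and cytosolic chaperones 5 were lower (20.8%, median -0.15), and 12 lower and 1 higher with the replicate block. The 5 became 3 when scaled by library totals and 2 in replicates 3 to 6 alone. Hspa8, the constitutive Hsp70, had 6467 to 7951 CPM (median 7299) and 3359 to 4783 (median 4600), a log2 change of -0.72 ± 0.10 (adjusted p = 0.00018), and Hsp90ab1 4836 to 5742 (median 5122) and 2793 to 3939 (median 3634), a log2 change of -0.55 ± 0.09 (adjusted p = 0.00121). Odc1 and Srm, enzymes of polyamine synthesis, changed by -0.72 (adjusted p = 0.00264) and -0.70 (adjusted p = 0.000857), the 2 called of 13 in their list (15.4%), of which 5 were lower and 1 higher with the replicate block.

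Of 36 SR proteins and hnRNPs, which guide splicing, 8 were lower and 1 higher (median -0.08, against 4.33% lower and 2.91% higher over all genes), Srsf7 among them at -0.64 ± 0.08 (adjusted p = 4.45e-05). The 8 became 15 with the replicate block, 5 when scaled by library totals and 4 in replicates 3 to 6 alone. In the next lists the shares called lower without the replicate block were near the 4.33% of all genes, or no gene passed. With the block, mitochondrial ribosomal proteins, aminoacyl-tRNA synthetases and tubulins lay clearly above the 10.6% of all genes. Of 79 mitochondrial ribosomal proteins 5 (6.33%) were lower (median -0.13), 18 with the replicate block, 10 in DESeq2 and 3 when scaled by library totals. Their log2 change was below 0 in 61 and above 0 in 18. Of 78 nuclear-encoded respiratory chain and ATP synthase subunits 3 (3.85%) were lower, with a median of 0.00, and 9 were lower and 3 higher with the replicate block. They were Cox7a2l, Atp5g2 (-0.62, adjusted p = 0.00032) and Ndufb5 (-0.40, adjusted p = 0.0268). The adjusted p of Ndufb5 lay between 0.0524 and 0.0604 in 6 fits that each left out DMSO replicate 1, 3, 5 or 6 or torin 1 replicate 2 or 4. Of 36 aminoacyl-tRNA synthetases 2 (5.56%) were lower, Mars2 (-0.95, adjusted p = 0.00716) and Qars (-0.64, adjusted p = 1.65e-05), which charge mitochondrial methionine and cytosolic glutamine tRNAs, and 11 were lower and 1 higher with the replicate block. Of 38 proteasome subunits 1 (2.63%), Adrm1, was lower (-0.35), 3 with the replicate block, and none of 15 tubulins or of 31 actin and contractile genes passed in edgeR. At an unadjusted p under 0.05 there were 2 lower tubulins, and 1 higher and 2 lower actin and contractile genes, and DESeq2 called 1 tubulin lower. With the replicate block 5 tubulins were lower, and 6 actin and contractile genes were higher and 2 lower.

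**Figure D4:**
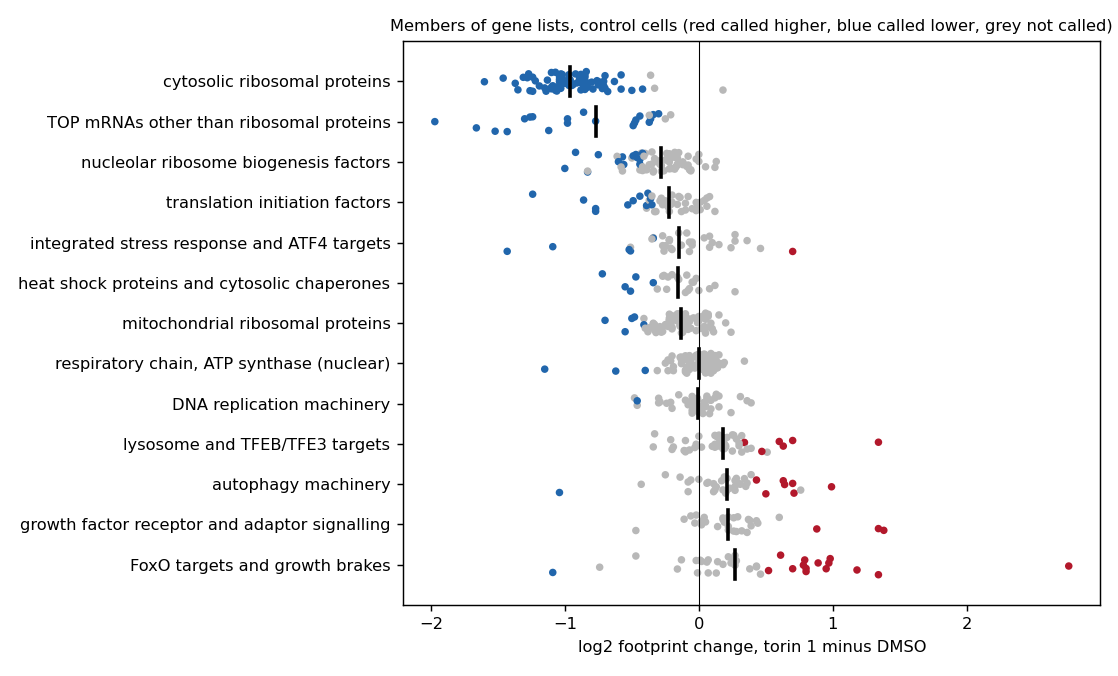
Log2 footprint change with torin 1 for each tested member of 13 gene lists in control cells; red points are called higher, blue called lower and grey not called, and the black bar is the list median. Medians run from -0.96 for ribosomal proteins and -0.77 for the other TOP mRNAs, through -0.28 for nucleolar biogenesis factors, to 0.18 for lysosome, 0.21 for autophagy and 0.27 for FoxO target genes.

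Transcript libraries of the same treatment show which footprint changes came with a change in mRNA. The 2 torin 1 transcript libraries numbered 5 and 6 lie with the DMSO transcripts, at 0.111 and 0.12 on a scale of 500 genes where DMSO replicates 1 and 2 average 0 and torin 1 replicates 1 and 2 average 1, so transcripts were compared over replicates 1 to 4. There 772 of 9626 genes (8.02%) were higher and 989 (10.3%) lower. With all 6 as labelled 916 genes were called in place of 1761, and with the replicate block 4217. Of the 284 footprint risers measured in transcripts, 208 (73.2%) were also higher in transcripts and none lower. Ccng2 transcripts rose by 3.21, from a median of 5.2 to 45.7 CPM, and those of Hbp1 by 2.12, from 37.9 to 152. Of the genes lowered in footprints outside ribosomal proteins, their copies and the TOP list, 200 of 305 (65.6%) were lower in transcripts and 9 higher, against 10.3% and 8.02% of all genes tested in transcripts. Pfkfb3 (-1.61), Aen (-1.42), Ccne1 (-0.93) and Rrs1 (-0.91) are examples. The TOP genes did not follow their transcripts. Of 20 lowered TOP mRNAs 11 were higher in transcripts and none lower, and of 79 lowered ribosomal proteins 32 were higher and none lower. Pabpc1 transcripts had 933 to 966 CPM with DMSO and 1242 to 1408 with torin 1, a log2 change of 0.45 (adjusted p = 0.001) while its footprints fell.

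**Figure D5:**
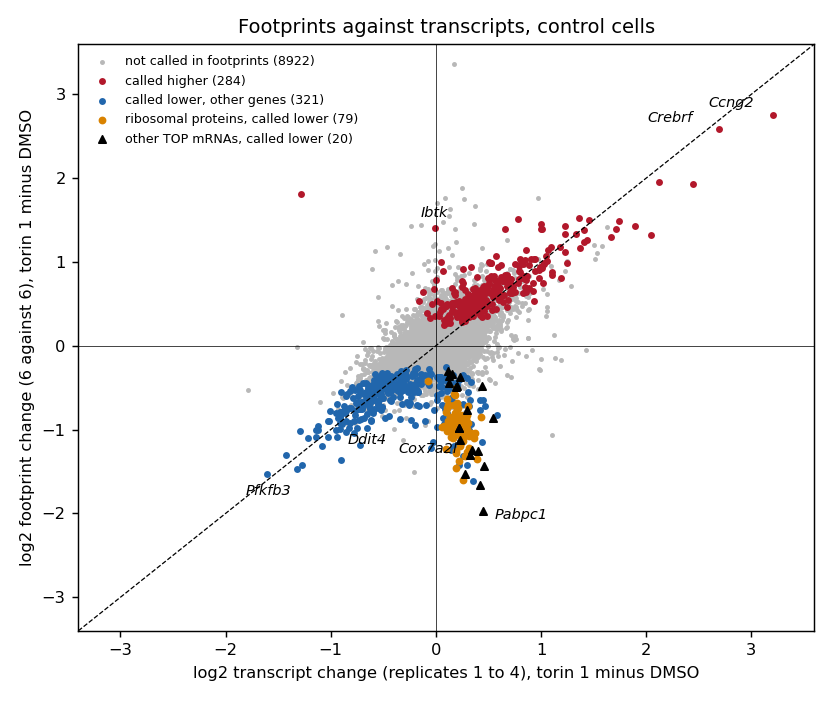
Log2 footprint change (6 against 6 libraries) against log2 transcript change (replicates 1 to 4) with torin 1 in control cells; the dashed line marks equal change, red are the 284 footprint risers, blue, orange and black the genes called lower in footprints, and grey the rest. Risers and most other lowered genes lie along the line, ribosomal proteins and other TOP mRNAs lie mostly right of 0 and below the line, and Ibtk lies above 0 at a transcript change of -0.01.

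Translational efficiency, footprints relative to transcripts in 1 model of both kinds of libraries, was called in 147 of 9624 genes (1.53%), lower in 142 (1.48%) and higher in 5 (0.052%). It shares its libraries with the footprint and transcript tests, so these sets of calls are not independent. The 142 comprised 76 ribosomal proteins, 18 of the TOP list, 8 copies or overlaps and 40 others. Ibtk (chr9:85687359-85750703), whose product is an adaptor of a ubiquitin ligase and whose mRNA carries upstream reading frames, had the largest of the 5 gains. Its footprints had 8.18 to 11.7 CPM with DMSO (median 10.3) and 21.7 to 30.1 with torin 1 (median 27.4), while its transcripts had 50.1 to 52.4 and 47 to 55.7 CPM. The groups did not overlap in footprints but did in transcripts, and its efficiency rose by 1.41 ± 0.15 (adjusted p = 1.16e-05). The other 4 genes with a higher efficiency were Usp31 (0.95), Mast2 (0.76), Sos1 (0.67) and Xpo6 (0.56). Of these 4, only Mast2, a microtubule-associated kinase, also rose in footprints, by 0.53 ± 0.11 (adjusted p = 0.00685), and in Sos1, a RAS activator, footprints differed by -0.02 (adjusted p = 0.945) while transcripts fell by 0.63 on the log2 scale.

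Among the 40 others was Cox7a2l, chosen for its footprint change. Its footprints had 49 to 67.5 CPM with DMSO (median 59.4) and 19.1 to 33.2 with torin 1 (median 27.3), while its transcripts had 73 to 89.5 and 101 to 118. Its efficiency changed by -1.55 ± 0.19 (adjusted p = 6.42e-05). Qars (-1.14), the ribosome assembly factors Nsa2 (-1.07) and Nop53 (-0.90), Hsp90ab1 (-0.89), Hspa8 (-0.83), Polr1c (-0.82), Eif4ebp2 (-0.82), Tomm20 (-0.76), a receptor for mitochondrial import, and Atp5g2 (-0.75) were also lower in efficiency, with adjusted p from 4.55e-06 to 0.0113. None of them was lower in transcripts. In the TOP list the largest change was that of Pabpc1 at -2.46 ± 0.23 (adjusted p = 2.84e-06).

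In cells with an induced Ctu1 knockout, where Ctu1 encodes an enzyme that thiolates the wobble uridine of some tRNAs, the same treatment gave 343 higher and 445 lower genes (3.48% and 4.52% of 9855). The 2 contrasts share no libraries. Of the 287 control risers 169 were called in both, 58.9% of that list and 49.3% of the risers in the knockout. Of the genes lowered outside the ribosomal proteins 197 were shared, 56.6% and 54.1%. Among the 287 risers none passed the interaction test, which used all 23 footprint libraries. Ccng2 changed by 2.76 in control and 2.81 in knockout cells, Crebrf by 2.58 and 2.64, Sgk1 by 1.38 and 1.34 and Klf4 by 1.52 and 1.58. The interaction test called 63 of 9857 genes (0.639%), 129 with the replicate block, and all 63 were lower in the knockout. By class they were 39 ribosomal proteins, 10 copies, 6 of the TOP list and 8 others. Eef1a1 had the smallest adjusted p (1.07e-08), with a log2 change of -1.26 in control and -2.48 in knockout cells, and within the TOP list the next in size were Eef2 (-1.43 and -2.33) and Eef1b2 (-1.52 and -2.38). Among the 8 others were Hspa8 (-0.72 and -1.23), Nme2, a nucleoside diphosphate kinase (-0.49 in control, a difference of -0.51), and Pfdn5 (-0.45 and -1.13), a subunit of the prefoldin chaperone. Ibtk changed by 1.41 in control and 0.76 in knockout cells, a difference of -0.64 that did not pass (adjusted p = 0.0803).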

How the data were processed

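Ribosome footprints and transcripts were sequenced from control EPP2 cultures treated with DMSO or torin 1. The authors deposited raw counts per gene for each library. The submitters' processing notes name cutadapt 3.4, UMI-tools 1.1.1, STAR 2.5.3a and GRCm38, without roles. The study's methods instead name a human build for the footprint alignment, with STAR's gene counting mode, and the listed symbols are mouse genes. Every transcript count was an even number. Counts were tested with edgeR 4.0.16 (TMM, quasi-likelihood test, Benjamini-Hochberg adjustment) at a mean of at least 10 counts, and a call means an adjusted p under 0.05. CPM used TMM factors. Each SE was the size of the log2 change divided by the square root of the F statistic of the test. The totals given above set the precision, and p-values measure the spread between these libraries, since the study's methods name 2 biologically independent replicates while its legends for codon occupancy in these cells, like the labels, count 6. The alternatives were DESeq2 1.42.0, other scalings and filters, the replicate block, other replicate sets and leave-one-out fits, and the fits were tested on simulated data.

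Same-numbered DMSO and torin 1 footprint libraries deviated from their group means together (r = 0.455 to 0.64 over 9160 genes, 6 of 6 pairs), so the numbers were taken to pair the samples. Within both treatments replicates 1 and 2, 3 and 4, and 5 and 6 were each other's closest library. With DMSO their variance over counting variance was 38.4, 32.4 and 28, against 58 to 121.1 for other combinations. With torin 1 it was 60.1, 24.7 and 35.1, against 52.6 to 139.4. The tests treat the 6 as separate cultures, and whether they are independent was not tested. The members and lists were chosen with earlier results of these data known. Some lists share members, Ccng2 and Sqstm1 among them, so the counts of different lists are not independent. Named genes were the 15 largest changes per direction outside ribosomal proteins, restricted to calls whose groups do not overlap and whose counts average 100 or more, key genes of each list and up to 4 with its smallest p, and the 5 largest changes per direction in translational efficiency. Sequences are from RefSeq, and other coordinates from the GRCm38.p6 annotation. Some genes are not reported here.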

Additional observations from a re-analysis of the deposited data

Results flagged for a closer look

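In 232 groups of 6 libraries examined for the genes given with values, 15 held a value far from the other 5, where chance alone gives about 1 in 20. Among the torin 1 libraries, replicate 1 gave the highest value of Ccng2 (25.5 CPM, next 18) and the lowest of Eif4b (110, next 174), Mars2 (3.07, next 6.04), Pabpc1 (83.7, next 152) and Pabpc4 (121, next 209). Replicate 2 gave the highest of Rnf149 (19352, next 3322), replicate 3 the highest of Sqstm1 (663, next 548) and replicate 4 the highest of Inhba (21.1, next 10.4) and replicate 6 that of Tgif1 (137). Rnf149, a ubiquitin ligase gene, took 1.94% of the counts of its library and was not called (adjusted p = 0.0543 in edgeR). Among the DMSO libraries, replicate 4 gave the highest value of Aen (56.8, next 44.9), Eef1d (3002, next 2606) and Pfkfb3 (45.6, next 31) and the lowest of Hbp1 (27.9, next 52.3) and Sqstm1 (288, next 344), and replicate 3 the highest of Pim1 (7.24, next 4.48).

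The torin 1 effect differed between Ctu1 knockout and control cells in 63 genes by the edgeR interaction test, each with the lower value in the knockout. On a scale of 500 genes chosen there, control footprints of replicates 1 and 2 average 0 with DMSO and 1 with torin 1. Control torin 1 replicates 3 to 6 stood at 0.614 to 0.676. Knockout libraries stood at 0.206 to 0.255 with DMSO and 0.851 to 1.007 with torin 1. The part of this in the 63 calls was not tested. Of the genes given with values, the difference in log2 change was -1.22 for Eef1a1 (adjusted p = 1.07e-08), -0.89 for Eef2 (0.0203), -0.85 for Eef1b2 (0.000246), -0.62 for Tpt1 (0.0491) and -0.57 for Eif3f (0.0053). It was -1.01 for Rps27 (0.000246) and -0.67 for Rpl13a (0.000973). Among genes that share sequence, position or a name with ribosomal protein genes it was -0.99 for Rps18-ps5, -0.98 for Rps18-ps6, -0.94 for Rps27rt, -0.78 for Gm2174 and -0.67 for Gm45713. Outside these groups it was -0.67 for Pfdn5 (0.0368), -0.51 for Hspa8 (0.0376) and -0.51 for Nme2 (0.00966).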

How the results depend on the processing

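With the replicate block 2019 genes were called in footprints in place of 714 (974 higher and 1045 lower), 4217 in transcripts in place of 1761 and 129 in the interaction in place of 63; the block ended none of the 287 higher and 427 lower calls. In replicates 1 and 2 alone 134 footprint genes were called, 23 higher and 111 lower, and the shares differed by -4.52 points for ribosomal proteins, -1.79 for other TOP mRNAs and 5.92 for the remainder, at an adjusted p of 0.444 in an exact test that cannot reach 0.05 with 2 against 2. DESeq2 called 482 genes higher in footprints, 230 in translational efficiency in place of 147 and 109 in the interaction, and library totals gave 602 higher in place of 287. All 6 transcript replicates as labelled gave 916 calls. Leaving out 1 library at a time gave 559 to 737 calls in footprints (212 to 316 higher, 343 to 421 lower), 1285 to 1609 in transcripts, 116 to 140 in translational efficiency and 48 to 64 in the interaction; the last 3 ranges, and list counts without the torin 1 library of replicate 1, were chosen after seeing the data. Of the genes given with values, 71 were no longer called in replicates 1 and 2 alone and 10 in replicates 3 to 6, and none changed direction in any of these fits. Depth limits genes of a few CPM most, and genes below the listing limit of 100 counts in every library were not analysed here.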

Other observations

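Of 25 genes of TGF-beta signalling and feedback 3 rose (12%) and 1 fell (4%) with torin 1 in footprints, against 2.91% and 4.33% of all genes. Tgif1, a transcriptional repressor of this pathway, changed by 0.55 on the log2 scale (adjusted p = 0.00139 in edgeR) and Tgfbr3, a co-receptor, by 0.49 (adjusted p = 0.0169). Dnajb9, a chaperone of the endoplasmic reticulum that the unfolded protein response induces, rose by 1.01 (adjusted p = 0.00555), 1 of 2 called genes among 26 of its list, 3.85% in each direction and near those shares.

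Of 19 stress mRNAs known for upstream reading frames 2 rose (10.5%, against 2.91% of all genes), Ibtk and Bcl2l11, and 3 fell (15.8%, against 4.33%), Atf4, Ifrd1 and Odc1. Ifrd1 had medians of 148 CPM with DMSO and 65.9 with torin 1, and its transcripts fell by 0.72 on the log2 scale (adjusted p = 0.000289).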
